A study of Caenorhabditis elegans with 14 samples.

Results

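This comparison asked how knocking down *anc-1* by RNAi altered the transcriptome of *Caenorhabditis elegans* hermaphrodites that express polyQ35-YFP, a stretch of 35 glutamines fused to the yellow fluorescent protein (strain AM140, genotype *unc-54p*::Q35-YFP). The *unc-54* promoter drives the transgene in body wall muscle, whereas RNA was taken from homogenates of whole worms. The treated group, *anc-1* RNAi (n = 4), was fed HT115 bacteria that make double-stranded RNA of *anc-1*, and the untreated group, EV (n = 4), was fed the same bacteria with the empty vector. All worms were synchronized, kept at 20 °C on IPTG plates, washed daily to take away progeny, and harvested on day 6 of adulthood. The 8 samples were chosen by their strain label out of 14 in the whole study, the other 6 being wild-type N2 worms on the same treatments, *anc-1* RNAi (n = 3) and EV (n = 3). They form 4 repeats, each of which held both treatments, so that samples of one number are pairs. The study describes the repeats as independent, but whether each was a separate culture is not given in the sources used here, and the p-values measure the spread between these samples.

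The libraries were made with CEL-Seq2, which counts reads at the 3′ end of a transcript. They held 5718349 to 8414290 reads on listed genes with *anc-1* RNAi and 5905938 to 11563506 with EV. Every value below is a normalized value, that is, reads divided by the size factor of the sample. Fold changes are log2 differences of normalized value + 1, *anc-1* RNAi over EV, and a gene was called where limma gave a Benjamini-Hochberg adjusted p below 0.05 over the 12173 genes listed. On the first principal component EV replicate 4 (49.2) and *anc-1* RNAi replicate 4 (20.1) stood apart from the others, which lay between -20.6 and 7.2. Body wall muscle (*unc-54*), intestine (*elt-2*), hypodermis (*dpy-7*), pharynx (*myo-2*), neuron (*unc-119*) and germline (*glh-1*) markers were all listed, while the sperm phosphatases *gsp-3* and *gsp-4* were not.

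ANC-1 is a giant KASH protein of the outer nuclear membrane. With the SUN protein UNC-84 it forms a linker of nucleoskeleton and cytoskeleton (LINC) complex that ties nuclei to actin filaments and anchors them in the syncytial hypodermis. Polyglutamine stretches of this length aggregate in muscle as worms age, which makes the strain a model of proteotoxicity.

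The target of the RNAi fell most. The normalized values of *anc-1* (WBGene00000140, chrI:4321095-4359105 of WBcel235) were 50.8, 25.6, 48.7 and 24.8 in the *anc-1* RNAi samples, against 409, 329, 352 and 295 in the EV samples. The groups did not overlap and the knockdown was seen in each pair (log2 fold change -3.24, SE 0.25, adjusted p = 4.8e-05), as it was in all 8 fits that left out 1 sample. In all, 94 genes were called higher (0.772% of those tested) and 179 were called lower (1.47%), *anc-1* among them. A term for the repeat raised these numbers to 466 higher (3.83%) and 524 lower (4.3%), among them all genes called without it. Counted without a test, 413 genes (3.39%) had all *anc-1* RNAi samples above all EV samples, and 723 (5.94%) had them all below. Most called genes were among them, 84 of the 94 called higher and 176 of the 179 called lower. Where the groups of a called gene are said below not to overlap, this adds little to the call. At least 2-fold differences made up 74 of the genes called higher and 118 of those called lower. Omitting 1 sample moved the counts to 19 higher and 41 lower at the least, when *anc-1* RNAi replicate 1 was left out, and to 305 higher and 535 lower at the most, when EV replicate 4 was, so that the omissions that ended a call are given for each gene with the highest adjusted p they gave. Scaling by library totals left 32 higher and 94 lower, and limma without its variance trend 1 higher and 6 lower. Counts in the gene lists below stand against 0.772% of all genes called higher and 1.47% lower (3.83% and 4.3% with the block). Genes were also grouped in 63 lists, of which 49 had 0 members called higher and 38 had 0 called lower by limma. In those lists 0 to 12 and 0 to 14 members had an unadjusted p below 0.05 in the direction without a call, edgeR called 0 and 0, and DESeq2 called at most 3 and 5.

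**Figure D1:**
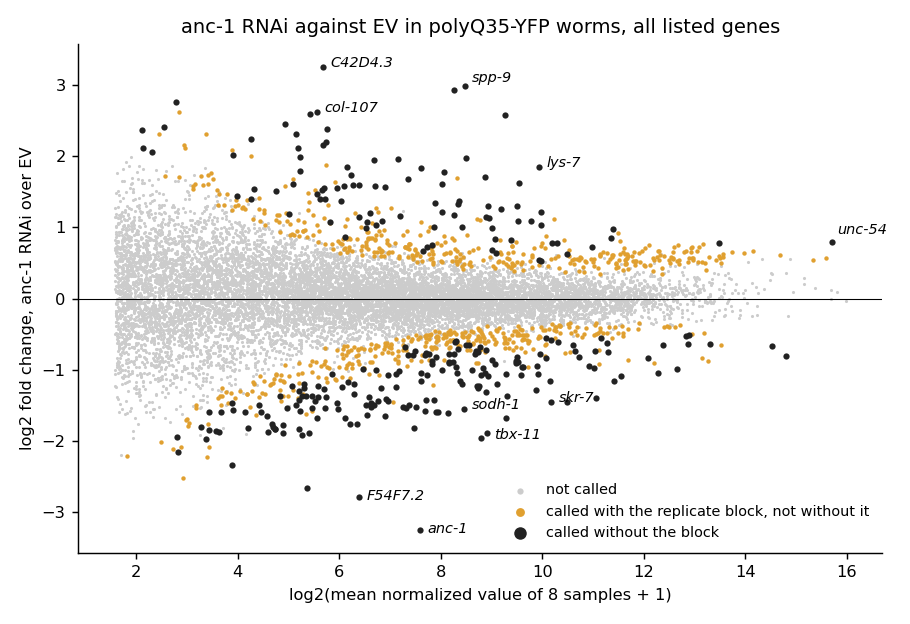
Log2 fold change (*anc-1* RNAi over EV) against log2 of the mean normalized value + 1 for the 12173 genes listed in polyQ35-YFP worms, with genes called without the replicate block in black and those called with the block but not without it in orange. *anc-1* is the lowest point at -3.24, and *C42D4.3* the highest at 3.25.

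T-box transcription factors, which specify cell fates in the embryo, fell in part with *anc-1* RNAi. Of 11 listed, 6 were called lower and 0 higher (7 and 0 with the block), at a median log2 fold change of -1.37 against 0.03 over all genes. *tbx-11* (chrIII:6045660-6046905) gave 179, 214, 208 and 184 in the *anc-1* RNAi samples, against 739.6, 645, 1169.9 and 494 in the EV samples (log2 fold change -1.88, SE 0.22, adjusted p = 0.00117). *tbx-38*, by which, with its copy *tbx-37*, anterior blastomeres respond to Notch signals, gave 268, 298, 313 and 264 with *anc-1* RNAi, against 933, 752, 1479 and 666 with EV (log2 fold change -1.67, SE 0.21, adjusted p = 0.00178). *tbx-8*, needed for the shaping of the embryonic body wall, gave 24.4, 46.6, 46.1 and 28.6 with *anc-1* RNAi, against 132, 118, 173 and 80.5 with EV (log2 fold change -1.77, SE 0.28, adjusted p = 0.00708). In all 3 genes the *anc-1* RNAi samples lay below every EV sample and spanned a narrower range of normalized values. Among the EV samples of each gene replicate 3 was the highest and replicate 4 the lowest. The other members called were *tbx-43* (-1.49, adjusted p = 0.0147), *tbx-33* (-0.99, adjusted p = 0.0402) and *tbx-37* (-1.59, adjusted p = 0.042). *tbx-9*, the partner copy of *tbx-8*, had a smaller fold change (-0.51, adjusted p = 0.0913), and neither the pharyngeal muscle factor *tbx-2* (-0.05, adjusted p = 0.957) nor *tbx-36* (0.02, adjusted p = 0.976) passed the test. *tbx-39* and *tbx-40* had low values, 0 to 2.86 with *anc-1* RNAi and 4.19 to 5.53 with EV for *tbx-40* (-1.37, adjusted p = 0.213). Calls of *tbx-11*, *tbx-38* and *tbx-8* were kept in all 8 single omissions, and the count of T-box genes called lower was 3 when EV replicate 2 was omitted. Omitting 1 sample could end the call of *tbx-43* (without EV replicate 2, up to 0.0546), *tbx-33* (without any sample but EV replicate 4, up to 0.121) and *tbx-37* (without any sample but EV replicate 4, up to 0.131).

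Genes first transcribed in the zygote were lower in part as well. Of 35 listed early zygotic genes, 8 were called lower and 0 higher (11 and 0 with the block), with a median of -0.93. *sdz-28*, named for its dependence on the endoderm and mesoderm regulator SKN-1, gave 109.97, 109.6, 137 and 110.4 in the *anc-1* RNAi samples, against 445, 317, 524 and 209 in the EV samples (log2 fold change -1.59, SE 0.24, adjusted p = 0.00559). *lsy-27*, a zinc finger gene of neuronal left-right asymmetry, gave 245, 186, 205 and 215 with *anc-1* RNAi, against 469, 384, 501 and 321 with EV (log2 fold change -0.96, SE 0.17, adjusted p = 0.0126). No *anc-1* RNAi sample reached an EV sample in either gene. The very early transcript *vet-2* had 108 to 125 with *anc-1* RNAi and 183 to 353 with EV, and *pes-10*, among the first genes switched on in somatic blastomeres, had 15 to 27.6 with *anc-1* RNAi and 45.3 to 95.2 with EV. Log2 fold changes were -1.15 for *vet-2*, -1.46 for *sdz-14*, -1.88 for *sdz-10* and -1.36 for *pes-10*, and *vet-1* and *vet-6* completed the count. The call was kept in every single omission for *sdz-28*, *lsy-27* and *sdz-10*. The call depended on single samples for *vet-2* (without *anc-1* RNAi replicate 1, up to 0.054), *sdz-14* (without *anc-1* RNAi replicate 1, up to 0.0518), *pes-10* (without *anc-1* RNAi replicates 1, 2, 3 and 4 and EV replicates 2 and 3, up to 0.113) and *vet-1* (without *anc-1* RNAi replicates 1, 2, 3 and 4 and EV replicates 1 and 3, up to 0.0745). Adjusted p rose past 0.05 in single omissions for *vet-6* (without any sample but EV replicate 4, up to 0.109). The count of early zygotic genes called lower was 3 when *anc-1* RNAi replicate 1 was omitted, 5 when *anc-1* RNAi replicates 2, 3 and 4 and EV replicate 3 were each omitted and 16 when EV replicate 4 was omitted.

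Markers of early embryos, a list that holds many of the same genes, moved in the same samples. Of 34 listed, 9 were called lower and 0 higher (13 and 0 with the block), and their summed values were 2933, 3038, 2789.5 and 2677 in the *anc-1* RNAi samples, against 6248, 4766, 7551 and 3900.1 in the EV samples. The number of these markers called lower was 3 when *anc-1* RNAi replicate 1 was omitted, 5 when *anc-1* RNAi replicates 2, 3 and 4 and EV replicate 3 were each omitted and 18 when EV replicate 4 was omitted. The defining markers *end-1*, *med-1* and *med-2* were not among the listed genes, while *end-3*, *hlh-27*, *pes-10*, *tbx-37* and *tbx-38* were. Without the block limma called *pes-10*, *tbx-37* and *tbx-38* lower, and did not call *end-3* or *hlh-27*. In homogenates of whole worms, fewer embryonic cells inside the adults and less RNA per cell cannot be told apart, and the part of embryo content in these results was not tested. Summed germline markers overlapped between the groups (24213 to 32078 with *anc-1* RNAi and 19168 to 34674 with EV), with 0 of 18 members called by limma without the block (1 at an unadjusted p below 0.05, 0 by edgeR and 0 by DESeq2), 1 called higher with the block and 2 when EV replicate 4 was left out. The germline median was 0.16, and 0.32 without that sample.

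**Figure D2:**
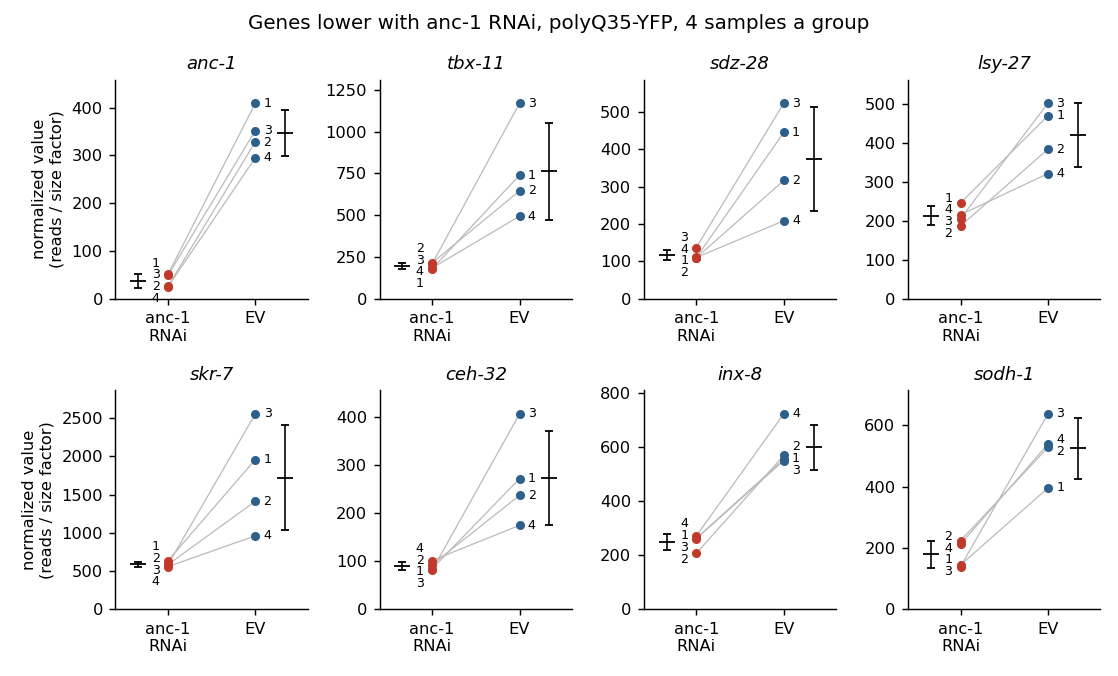
Normalized values of 8 genes called lower, *anc-1* RNAi left and EV right in each panel, a point per sample with its replicate number, lines joining the samples of a repeat, and the mean ± SD beside the points (n = 4 each). In every panel the *anc-1* RNAi samples lie below all EV samples and span a narrower range on the plotted scale.

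Other developmental regulators fell in part. Among 58 homeobox genes, 6 were called lower and 0 higher (11 and 0 with the block), although the median of the list was only -0.14. *ceh-32*, a *sine oculis* relative of head development, gave 84.6, 93.2, 81.6 and 102 in the *anc-1* RNAi samples, against 272, 238, 407 and 175 in the EV samples (log2 fold change -1.52, SE 0.23, adjusted p = 0.00443). The Pbx relative *ceh-40* gave 263, 245, 245 and 259.9 with *anc-1* RNAi, against 538, 498, 721 and 349 with EV, and *ceh-10*, which specifies interneurons, gave 16.9, 15.2, 17.1 and 17.1 with *anc-1* RNAi, against 47.5, 42.6, 91.9 and 29.3 with EV. Their groups did not overlap, nor did those of *ceh-86*, *ceh-58* and *ceh-21*. The calls were *ceh-40* (-1.01, adjusted p = 0.0158), *ceh-10* (-1.49, adjusted p = 0.0275), *ceh-86* (-1.59, adjusted p = 0.0241), *ceh-58* (-0.78, adjusted p = 0.0353) and *ceh-21* (-0.68, adjusted p = 0.039). Of 33 Notch pathway genes 2 were called lower and 0 higher (4 and 0 with the block), and both were DSL-type ligands, *dsl-2* (-1.43, adjusted p = 0.0164) and *dsl-1* (-1.81, adjusted p = 0.0313). The GATA factor of the seam cells *egl-18* was called lower (-0.86, adjusted p = 0.017), the only one of 9 called, and the hypodermal fate gene *elt-1* was not (-0.70, adjusted p = 0.158). The call of *ceh-32* was kept in all 8 single omissions, and the count of homeobox genes called lower was 1 when *anc-1* RNAi replicates 1, 2 and 3 and EV replicate 2 were each omitted, 2 when *anc-1* RNAi replicate 4 and EV replicate 3 were each omitted, 3 when EV replicate 1 was omitted and 11 when EV replicate 4 was omitted. Notch genes called lower numbered 5 and GATA genes 2 without EV replicate 4. With 1 of the 8 samples left out, the call ended for *ceh-40* (without *anc-1* RNAi replicates 1, 2 and 3 and EV replicate 2, up to 0.0573), *ceh-10* (without any sample but EV replicate 4, up to 0.0854), *ceh-86* (without any sample but EV replicate 4, up to 0.0832) and *ceh-58* (without *anc-1* RNAi replicates 1, 2, 3 and 4 and EV replicates 2 and 3, up to 0.127). Fits lacking 1 sample lost *ceh-21* (without any sample but EV replicate 4, up to 0.145), *dsl-2* (without *anc-1* RNAi replicates 1, 2 and 3, up to 0.0605), *dsl-1* (without any sample but EV replicate 4, up to 0.0995) and *egl-18* (without *anc-1* RNAi replicates 1 and 3, up to 0.0709).

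Over all genes, 1.47% were called lower and 0.772% higher (4.3% and 3.83% with the block). Of 164 nuclear hormone receptors, 2 were called lower and 0 higher (4 and 2 with the block). They were *nhr-2*, an embryonic receptor with 324, 315, 328 and 417 in the *anc-1* RNAi samples, against 903, 825, 1307 and 644 in the EV samples (log2 fold change -1.37, SE 0.19, adjusted p = 0.0036), and *sex-1*, a counter of X chromosomes in the embryo (-0.87, adjusted p = 0.039). Neither gene had overlapping groups. Of Wnt and TGF-β genes 0 of 29 and 0 of 23 were called by limma without the block (Wnt genes, 7 at an unadjusted p below 0.05, 0 by edgeR and 2 by DESeq2, and TGF-β genes, 2 at an unadjusted p below 0.05, 0 by edgeR and 0 by DESeq2), and 4 and 1 were lower under the block. The median log2 fold change of the nuclear hormone receptors was 0.10 (-0.01 without EV replicate 4) and that of the Wnt genes -0.17, with 24 of the 29 Wnt genes below 0. The Wnt receptors *cam-1* (-0.61, adjusted p = 0.0616) and *mom-5* (-0.51, adjusted p = 0.0762) were below EV in all samples without passing the test, as was the SMAD gene *daf-3* (-0.80, adjusted p = 0.148). Single omissions kept the call of *nhr-2*, and without EV replicate 4 limma called 4 receptors and 2 Wnt genes lower and 1 receptor higher. Single omissions ended the call of *sex-1* (without any sample but EV replicate 4, up to 0.105).

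*skr* genes encode the Skp1-related adaptors that join F-box proteins to a cullin in SCF ubiquitin ligases. Of 19 listed, 6 were called lower and 0 higher, at a median of -0.56, and with the block 9 were lower and 2 higher. *skr-7* (chrV:4422406-4423065) gave 636, 585, 583 and 559.7 in the *anc-1* RNAi samples, against 1960.2, 1414, 2557 and 962 in the EV samples (log2 fold change -1.45, SE 0.23, adjusted p = 0.00712). *skr-9* (chrIV:17163554-17164210) gave 102, 101, 97.4 and 92.3 with *anc-1* RNAi, against 350.1, 255, 450.5 and 188 with EV (log2 fold change -1.58, SE 0.23, adjusted p = 0.00426). *skr-15* on chromosome II gave 97.8, 118.9, 88.2 and 132 with *anc-1* RNAi, against 338, 263, 435 and 187 with EV (log2 fold change -1.43, SE 0.24, adjusted p = 0.00912). The *anc-1* RNAi samples of each of the 3 genes lay within a narrow range under the lowest EV sample, which was replicate 4 each time. Similar values were found for *skr-10* (-1.42, adjusted p = 0.0126), *skr-8* (-1.50, adjusted p = 0.0126) and *skr-14* (-1.41, adjusted p = 0.0147). *skr-8* and *skr-9* are neighbours on chromosome IV, *skr-7* and *skr-14* on chromosome V, and these copies resemble each other in sequence, so that reads may be shared between them. The ubiquitously used *skr-1* and *skr-2* kept values near those of EV (-0.11 and -0.06, adjusted p = 0.731 and 0.878). *skr-3*, *skr-4* and *skr-5* had positive fold changes (0.41, 0.60 and 0.73) that did not pass the test without the block, and *skr-4* and *skr-5* were the members called higher with it. Omissions left the call of *skr-7*, *skr-9* and *skr-15* in place, and the number of *skr* genes called lower was 3 when *anc-1* RNAi replicate 1 was omitted and 11 when EV replicate 4 was omitted. Calls also ended in such fits for *skr-10* (without *anc-1* RNAi replicate 1, up to 0.054), *skr-8* (without *anc-1* RNAi replicate 1, up to 0.0518) and *skr-14* (without *anc-1* RNAi replicate 1, up to 0.0553).

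The cullin gene *cul-1* had 592, 664, 532 and 690.2 in the *anc-1* RNAi samples, against 847, 809, 887 and 888 in the EV samples. Its *anc-1* RNAi samples were all below the EV samples, but over all 8 samples limma did not call the gene without the block (-0.47, adjusted p = 0.0782). It was called with the block (adjusted p = 0.0191), by DESeq2 without a block (0.0138) and when EV replicate 4 was left out (0.0494), and the alternatives ran from 0.0138 to 0.238. *cul-6* was low throughout (3.81 to 10.5 with *anc-1* RNAi and 2.51 to 8.11 with EV, 0.49, adjusted p = 0.679). Of 196 F-box genes, which bring substrates to the ligase, 8 were called lower and 0 higher, and with the block 26 lower and 2 higher, with a median of -0.28. *fbxc-25* gave 7.52, 10.5, 7.9 and 11.4 with *anc-1* RNAi, against 40.6, 35.7, 47.6 and 25.1 with EV (log2 fold change -1.87, SE 0.30, adjusted p = 0.00714). *fbxc-28* gave 111.8, 49, 75 and 70.4 with *anc-1* RNAi, against 311, 238, 411 and 153 with EV (log2 fold change -1.82, SE 0.30, adjusted p = 0.00789). Both are on chromosome II and their groups did not overlap. *fbxb-107* had few reads (1.17 to 7.62 with *anc-1* RNAi and 13.4 to 36.5 with EV, -2.33, adjusted p = 0.0189), as had *fbxb-119* (14.5 to 19.8 with *anc-1* RNAi and 28.5 to 78.6 with EV, -1.58, adjusted p = 0.0247). F-box genes form large families of similar copies, and the read counts of 1 member may hold reads of another. Single omissions kept the calls of *fbxc-25* and *fbxc-28*, and the count of F-box genes called lower was 2 when *anc-1* RNAi replicates 1, 2 and 3 and EV replicates 2 and 3 were each omitted, 3 when *anc-1* RNAi replicate 4 and EV replicate 1 were each omitted and 30 when EV replicate 4 was omitted. Omitting 1 sample could end the call of *fbxb-107* (without *anc-1* RNAi replicates 1, 2 and 3 and EV replicates 2 and 3, up to 0.0669) and *fbxb-119* (without any sample but EV replicate 4, up to 0.0825).

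The remaining ubiquitin machinery had few calls. Genes of MATH and BTB domain proteins, a group that takes in adaptors of CUL-3 ligases, had 1 of 64 members called lower and 0 higher, *btb-11* (6.99 to 18.4 with *anc-1* RNAi and 18.4 to 53.1 with EV, -1.76, adjusted p = 0.0299), and with the block 4 lower and 1 higher (5 lower without EV replicate 4). None of 21 E1 and E2 enzymes (3 at an unadjusted p below 0.05, 0 by edgeR and 0 by DESeq2) and none of 30 proteasome subunits was called under either fit, and the proteasome log2 fold changes lay between -0.10 and 0.34 (median 0.09). For the proteasome genes the counts were 1 at an unadjusted p below 0.05, 0 by edgeR and 0 by DESeq2. Autophagy genes had 2 of 32 called lower and 0 higher (5 and 0 with the block), and the number called lower was 1 when *anc-1* RNAi replicates 1, 3 and 4 and EV replicate 2 were each omitted and 8 when EV replicate 4 was omitted. They were *sepa-1* and *epg-2*, adaptors that deliver P granule proteins and aggregates to autophagosomes in embryos. *sepa-1* gave 49.8, 42, 60.6 and 52.4 with *anc-1* RNAi, against 185, 118, 215 and 93.9 with EV (log2 fold change -1.50, SE 0.26, adjusted p = 0.0112), and *epg-2* gave 1735, 2201, 1485 and 1249 with *anc-1* RNAi, against 3939, 3301, 5566 and 2403 with EV (log2 fold change -1.15, SE 0.23, adjusted p = 0.0192). Neither gene had overlapping groups, and *sepa-1* was called in all 8 single omissions. The call depended on single samples for *btb-11* (without *anc-1* RNAi replicates 1, 2 and 4 and EV replicates 1, 2 and 3, up to 0.102) and *epg-2* (without *anc-1* RNAi replicates 1, 3 and 4 and EV replicate 2, up to 0.0713).

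Within the LINC complex and nuclear envelope, 2 of 9 genes were called lower, *anc-1* itself and its SUN partner *unc-84*, and 0 were called higher (3 lower and 0 higher with the block). *unc-84* gave 935, 1008, 1006 and 1041 in the *anc-1* RNAi samples, against 1439.7, 1542, 1862 and 1299 in the EV samples (log2 fold change -0.61, SE 0.13, adjusted p = 0.0319). The germline pair *sun-1* and *zyg-12*, which holds centrosomes at nuclei, did not pass the test (0.09 and -0.46, adjusted p = 0.864 and 0.23). The lamin *lmn-1* (-0.20, adjusted p = 0.515) and the emerin *emr-1* (-0.21, adjusted p = 0.516) had slightly negative fold changes within the spread of the samples. Adjusted p rose past 0.05 in single omissions for *unc-84* (without *anc-1* RNAi replicates 1, 2, 3 and 4 and EV replicates 2 and 3, up to 0.127).

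Genes of the gonad and the egg were lower in part. Of 23 innexins, 2 were called lower and 0 higher (3 and 0 with the block). Of 21 eggshell and oocyte surface genes, 2 were called lower and 0 higher (3 and 0 with the block). Over all genes 1.47% were called lower, and 4.3% with the block. The gap junction gene *inx-8* of the somatic gonad sheath gave 263, 207, 262 and 272 in the *anc-1* RNAi samples, against 556, 571, 551 and 724 in the EV samples (log2 fold change -1.25, SE 0.15, adjusted p = 0.00147), whereas its germline partners *inx-14* (0.03, adjusted p = 0.961) and *inx-22* (0.22, adjusted p = 0.689) and its neighbour copy *inx-9* (-0.57, adjusted p = 0.226) did not pass the test. The widely used innexin *inx-3* was called lower too (-0.95, adjusted p = 0.0241). The eggshell gene *perm-2* gave 20463, 16196, 21138 and 25521 with *anc-1* RNAi, against 34999, 30459, 34465 and 44757 with EV. Another eggshell gene, *perm-4*, gave 8169, 7404, 6745 and 9034 with *anc-1* RNAi, against 11319.7, 12142, 10136 and 15327 with EV. Both were lower in every *anc-1* RNAi sample than in any EV sample. They were the only eggshell genes called of 21, *perm-2* at -0.80 (adjusted p = 0.0247) and *perm-4* at -0.63 (adjusted p = 0.0454). By limma, neither a meiotic chromosome gene (of 38) nor a maternal RNA regulator (of 45) was called, with 1 and 2 at an unadjusted p below 0.05 by limma, 0 and 0 called by edgeR, and 0 and 0 by DESeq2. Of 22 P granule genes limma called 0 without the block (3 at an unadjusted p below 0.05, 0 by edgeR and 0 by DESeq2), but 7 were called higher when EV replicate 4 was left out, at a median of 0.48 against 0.27 with it. In that fit 4 eggshell genes were called higher and 3 lower, and 2 meiotic chromosome genes and 2 maternal RNA regulators higher. With the block the P granule helicase *glh-1* and the Argonaute *wago-2* were called higher (0.64 and 0.53), which they were not without it (adjusted p = 0.276 and 0.185). For *inx-8* the call was kept in each single omission. With 1 of the 8 samples left out, the call ended for *inx-3* (without *anc-1* RNAi replicates 1, 2, 3 and 4 and EV replicates 2 and 3, up to 0.0854), *perm-2* (without *anc-1* RNAi replicates 1, 2 and 3 and EV replicate 3, up to 0.0929) and *perm-4* (without any sample but EV replicate 4, up to 0.157).

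Of 56 DNA replication and cell cycle genes, 2 were called lower and 0 higher (7 and 0 with the block), the helicase subunit *mcm-7* (-0.65, adjusted p = 0.0153) and the B-type cyclin *cyb-3* (-0.52, adjusted p = 0.044). Splicing genes showed 2 of 66 called lower and 0 higher (7 and 0 with the block), and 58 of them had a negative fold change (median -0.19). *rsp-3*, an SR protein, gave 6381, 6178, 5902 and 6544 with *anc-1* RNAi, against 8598, 8575, 10288 and 8356 with EV (-0.51, adjusted p = 0.0438), and the hnRNP gene *hrp-2* was called as well (-0.63, adjusted p = 0.0286). The groups did not overlap in these 4 genes. When EV replicate 4 was left out, 5 replication and cell cycle genes and 4 splicing genes were called lower. Fits lacking 1 sample lost *mcm-7* (without *anc-1* RNAi replicates 1 and 3 and EV replicates 2 and 3, up to 0.0701), *cyb-3* (without any sample but EV replicate 4, up to 0.154), *hrp-2* (without *anc-1* RNAi replicates 1, 2 and 3 and EV replicates 2 and 3, up to 0.11) and *rsp-3* (without any sample but EV replicate 4, up to 0.144).

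Defence genes rose in part. Of 35 antimicrobial peptide genes, 6 were called higher and 0 lower, against 0.772% of all genes called higher, and with the block 16 were higher and 0 lower. Their median log2 fold change was 0.82 (0.55 without EV replicate 4). *cnc-6*, a caenacin of the epidermis, gave 356, 238, 169.8 and 144 in the *anc-1* RNAi samples, against 66.1, 63.9, 43.2 and 46.9 in the EV samples (log2 fold change 1.96, SE 0.27, adjusted p = 0.00308). *nlp-34*, of the epidermal peptide cluster on chromosome V, gave 566, 469.7, 399 and 218 with *anc-1* RNAi, against 206, 110.3, 111.8 and 64.5 with EV (log2 fold change 1.77, SE 0.33, adjusted p = 0.0147). In both, replicate 4 was the lowest *anc-1* RNAi sample and still lay above every EV sample. The fungus-induced genes *fip-5* (1.01, adjusted p = 0.0191), *fip-6* (2.20, adjusted p = 0.034) and *fipr-26* (1.95, adjusted p = 0.0226) and the caenacin *cnc-4* (1.37, adjusted p = 0.039) made up the rest of the count. *fip-6* and *fipr-26* are neighbours on chromosome I and may share reads. Members of the *nlp-29* cluster beside *nlp-34* were uneven, with *nlp-29* at 0.67, *nlp-31* at 0.88, *nlp-28* at 0.06 and *nlp-30* at 0.28, none of them called without the block. The number called higher was 1 when *anc-1* RNAi replicates 1 and 3 were each omitted, 2 when *anc-1* RNAi replicate 2 and EV replicate 2 were each omitted, 3 when EV replicate 3 was omitted and 11 when EV replicate 1 was omitted. Single omissions ended the call of *nlp-34* (without *anc-1* RNAi replicates 1, 2 and 3, up to 0.06), *fip-5* (without *anc-1* RNAi replicates 1, 2 and 3 and EV replicate 2, up to 0.0815), *fip-6* (without *anc-1* RNAi replicates 1, 2 and 3 and EV replicates 2 and 3, up to 0.117) and *fipr-26* (without *anc-1* RNAi replicates 1, 2 and 3 and EV replicates 2 and 3, up to 0.088). Calls also ended in such fits for *cnc-4* (without *anc-1* RNAi replicates 1, 2 and 3 and EV replicates 2 and 3, up to 0.13).

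Genes of antibacterial enzymes and lectins rose in part too. The lysozyme *lys-7* (chrV:3481419-3482600), used against ingested bacteria, gave 1636, 1632, 1468 and 1295 in the *anc-1* RNAi samples, against 603, 435, 229 and 505 in the EV samples (log2 fold change 1.84, SE 0.24, adjusted p = 0.00178). It was the 1 lysozyme of 13 called, with 3 higher under the block, and *lys-8* missed the test (0.73, adjusted p = 0.0842). Saposin-like proteins, which can lyse membranes, had 3 of 19 called higher and 0 lower (5 and 0 with the block). *spp-9* gave 538, 462, 1262 and 236 with *anc-1* RNAi, against 148, 89.7, 16.6 and 78.8 with EV (log2 fold change 2.98, SE 0.57, adjusted p = 0.0162), and *spp-12* gave 552, 395, 878 and 248 with *anc-1* RNAi, against 229.5, 63.9, 18.8 and 46.9 with EV (log2 fold change 2.93, SE 0.56, adjusted p = 0.017). Both were highest in *anc-1* RNAi replicate 3 and lowest in EV replicate 3, the samples of the same repeat. *spp-23* rose less (0.73, adjusted p = 0.0341). The call of *lys-7* was kept in every single omission. Without EV replicate 1 limma called 3 lysozymes higher. Omitting 1 sample could end the call of *spp-9* (without *anc-1* RNAi replicates 1, 2 and 3, up to 0.0574), *spp-12* (without *anc-1* RNAi replicates 1, 2 and 3, up to 0.0667) and *spp-23* (without *anc-1* RNAi replicates 1, 2, 3 and 4 and EV replicates 2 and 3, up to 0.12).

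C-type lectins had 3 of 63 called higher and 0 lower (6 and 3 with the block), and a median of 0.09. *clec-41* gave 419, 459, 487 and 327 with *anc-1* RNAi, against 239, 197, 142 and 177 with EV (log2 fold change 1.17, SE 0.19, adjusted p = 0.00708). *clec-5* gave 96.8, 86.3, 100.0 and 77.1 with *anc-1* RNAi, against 41.7, 27, 16.6 and 41.9 with EV (log2 fold change 1.56, SE 0.28, adjusted p = 0.0146). The *anc-1* RNAi samples lay above all EV samples in both and in *clec-145* (1.54, adjusted p = 0.0353), a gene of few reads. The galectin *lec-8* was called higher (2767 to 3891 with *anc-1* RNAi and 1355 to 2429.7 with EV, 0.85, adjusted p = 0.0269), and all 12 galectins had a positive fold change (median 0.29). In the infection response list 1 gene rose, *dod-19* (0.99, adjusted p = 0.0177), and 1 fell, *dct-13* (10.5 to 17.5 with *anc-1* RNAi and 26 to 85.8 with EV, -1.82, adjusted p = 0.0191), which the tables annotate with mRNA decay and not with immunity. The call of *clec-41* held in each single omission. Galectins called higher numbered 3 without EV replicate 1 and 2 without EV replicate 4, and in the fit without EV replicate 4 5 infection response genes and 2 C-type lectins were called lower. The call depended on single samples for *clec-5* (without *anc-1* RNAi replicates 1 and 3, up to 0.0571), *clec-145* (without *anc-1* RNAi replicates 1, 2 and 3 and EV replicates 1, 2 and 3, up to 0.126), *lec-8* (without *anc-1* RNAi replicates 1, 2 and 3 and EV replicate 2, up to 0.105) and *dod-19* (without *anc-1* RNAi replicates 1, 2 and 3 and EV replicate 2, up to 0.0782). Adjusted p rose past 0.05 in single omissions for *dct-13* (without *anc-1* RNAi replicates 1 and 3 and EV replicates 2 and 3, up to 0.0673).

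**Figure D3:**
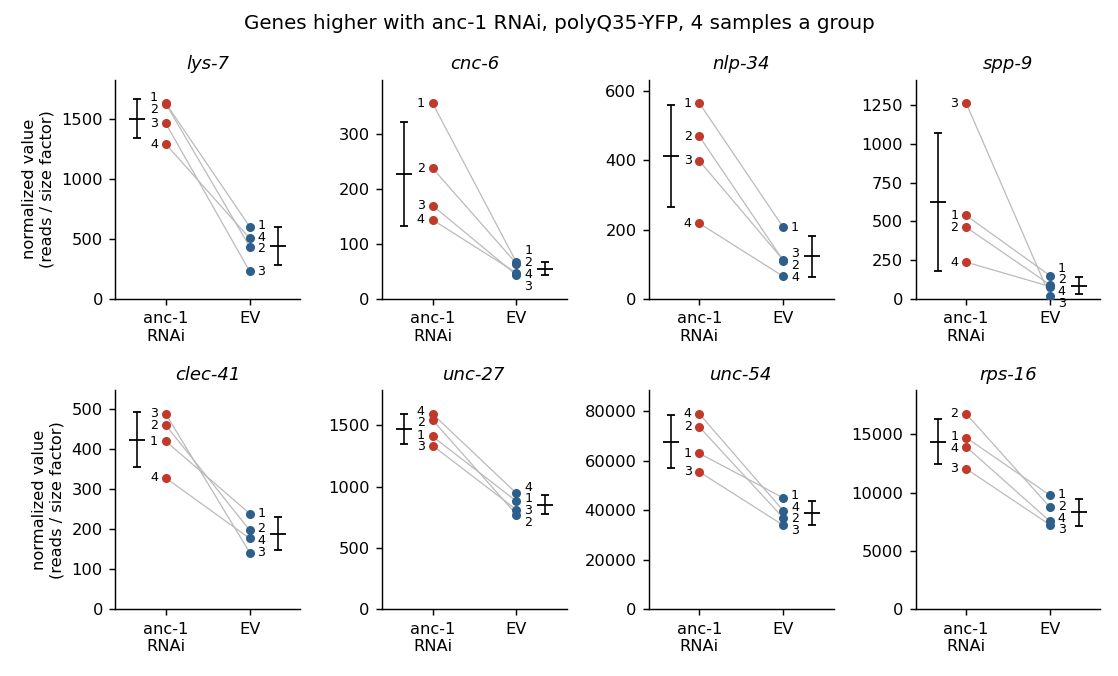
Normalized values of 8 genes called higher, *anc-1* RNAi left and EV right in each panel, a point per sample with its replicate number, lines joining the samples of a repeat, and the mean ± SD beside the points (n = 4 each). All *anc-1* RNAi samples lie above all EV samples in each panel, and *spp-9* has the widest spread, with 1262 in *anc-1* RNAi replicate 3 and 16.6 in EV replicate 3.

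Muscle filament genes, active in the tissue that carries the transgene, were higher in part. Of 46 listed, 5 were called higher and 0 lower, with 12 and 1 under the block and a median of 0.32. The troponin I gene *unc-27* gave 1408, 1542, 1334 and 1592 in the *anc-1* RNAi samples, against 881, 772, 811 and 945 in the EV samples (log2 fold change 0.79, SE 0.13, adjusted p = 0.00712). The troponin T gene *tnt-2* averaged 692 ± 127 with *anc-1* RNAi and 383 ± 54.7 with EV (SD, n = 4 each), at a log2 fold change of 0.84, SE 0.16, adjusted p = 0.017. The myosin heavy chain gene *unc-54* (chrI:14855899-14863540) gave 62906, 73564, 55458 and 78846 with *anc-1* RNAi, against 44966, 36857, 33918 and 39805 with EV (log2 fold change 0.79, SE 0.16, adjusted p = 0.0185). Paramyosin, *unc-15*, gave 1065, 1167, 1143 and 1245 with *anc-1* RNAi, against 862, 772, 737 and 802 with EV (log2 fold change 0.54, SE 0.12, adjusted p = 0.0346). No group overlapped in these 4 genes, whereas the other body wall myosin, *myo-3*, gave 125, 135, 132 and 87.6 with *anc-1* RNAi, against 126.4, 99.7, 115 and 131 with EV and did not differ beyond the spread (0.01, adjusted p = 0.987). The polyQ35-YFP transcript itself was not among the listed genes, and whether its reads add to those of *unc-54* was not tested. *unc-54* had a log2 fold change of 0.37 in wild-type worms, which lack the transgene (adjusted p = 0.014).

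The fifth member called, *act-5*, is the actin of intestinal microvilli and not of muscle (1353 to 1817 with *anc-1* RNAi and 790.4 to 1051 with EV, 0.78, adjusted p = 0.0158). Opposite differences appeared between pharyngeal isoforms under the block, with the troponin C gene *tnc-2* called higher (0.93) and the troponin I gene *tni-4* lower (-0.50), neither of which was called without it (adjusted p = 0.151 and 0.134). Conventional actins had fold changes near 0, 0.16 for *act-1*, -0.23 for *act-2*, 0.02 for *act-3* and 0.20 for *act-4*, with adjusted p values from 0.397 to 0.958. These copies are nearly identical and their reads may be split. The call of *unc-27* was kept in all 8 single omissions. With 1 of the 8 samples left out, the call ended for *tnt-2* (without *anc-1* RNAi replicates 1 and 2 and EV replicates 2 and 3, up to 0.0727), *unc-54* (without *anc-1* RNAi replicates 1, 2 and 4 and EV replicates 2 and 3, up to 0.0773), *unc-15* (without *anc-1* RNAi replicates 1, 2, 3 and 4 and EV replicates 2 and 3, up to 0.131) and *act-5* (without *anc-1* RNAi replicates 1 and 2 and EV replicate 3, up to 0.0726). The number of filament genes called higher was 1 when *anc-1* RNAi replicates 1 and 2 and EV replicate 3 were each omitted, 2 when EV replicate 2 was omitted, 3 when *anc-1* RNAi replicate 4 was omitted and 9 when EV replicate 4 was omitted.

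Collagens of the cuticle, the exoskeleton made by the hypodermis, had few calls without the block. Of 100, 2 were called higher and 1 lower, against 0.772% and 1.47% of all genes. With the block 12 were higher and 10 lower, against 3.83% and 4.3%, and the median of the list was 0.15. Leaving out EV replicate 4 gave 4 higher and 8 lower, while 0 were lower in each fit that lacked *anc-1* RNAi replicate 3 or EV replicate 1, 2 or 3. *col-107* gave 114, 95.6, 56.6 and 52.4 in the *anc-1* RNAi samples, against 23.2, 8.78, 15.5 and 5.03 in the EV samples (log2 fold change 2.63, SE 0.41, adjusted p = 0.00629). *col-183* gave 65.8, 52.5, 60.6 and 53.3 with *anc-1* RNAi, against 26.7, 11.3, 7.75 and 15.1 with EV (log2 fold change 1.99, SE 0.33, adjusted p = 0.00877). Against them *col-20* fell, with 170.1, 319, 155 and 407 with *anc-1* RNAi, against 718, 512, 452 and 620.3 with EV (log2 fold change -1.222, SE 0.27, adjusted p = 0.0347). None of the 3 had overlapping groups. Among 45 hedgehog-related genes *grd-10* was called higher (188, 103.7, 147 and 64.7 with *anc-1* RNAi, against 42.9, 43.3, 45.4 and 25.1 with EV, 1.59, adjusted p = 0.0182), and under the block 5 were higher and 1 lower. Transthyretin-like genes were split in another way. Of 46, *ttr-50* was called lower (544 to 675 with *anc-1* RNAi and 771 to 1853 with EV, -1.06, adjusted p = 0.0241), while 40 had a positive fold change and 11 were called higher with the block, against 2 lower. Hedgehog-related genes called higher numbered 3 without *anc-1* RNAi replicate 4. Without EV replicate 4, 1 transthyretin-like gene was called higher and 2 lower. Both *col-107* and *col-183* were called in each single omission. Fits lacking 1 sample lost *col-20* (without *anc-1* RNAi replicates 1, 2 and 3 and EV replicates 1, 2 and 3, up to 0.121), *grd-10* (without *anc-1* RNAi replicates 1, 2 and 3, up to 0.0742) and *ttr-50* (without any sample but EV replicate 4, up to 0.0854).

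Secreted signals changed in a few members. Of 57 insulin signalling genes and targets of the FOXO factor DAF-16, 4 were called higher and 1 lower (7 and 2 with the block). The insulin-like peptide *ins-7*, which activates the receptor DAF-2, gave 40.4, 50.1, 52.7 and 54.3 in the *anc-1* RNAi samples, against 6.96, 20.1, 25.5 and 15.1 in the EV samples (log2 fold change 1.61, SE 0.34, adjusted p = 0.0269). *ins-34*, another insulin-like peptide, went the other way with 68.6, 58.3, 35.5 and 58.1 with *anc-1* RNAi, against 162, 211, 261 and 91.4 with EV (log2 fold change -1.64, SE 0.30, adjusted p = 0.0147). *ins-30* was another peptide called (1.19, adjusted p = 0.0384), and *lys-7* and *dod-19*, described with the defence genes, were the other members called higher. Among 73 neuropeptide genes 4 were called higher and 0 lower (7 and 0 with the block). Besides the epidermal *nlp-34* these were *nlp-16* (113, 127, 94.8 and 118 with *anc-1* RNAi, against 41.7, 46.4, 84.1 and 39.4 with EV), *nlp-18* (247, 240.1, 213 and 281 with *anc-1* RNAi, against 169, 139, 149 and 157 with EV) and the FMRFamide-like *flp-13* (64.9, 54.8, 94.8 and 85.7 with *anc-1* RNAi, against 32.5, 25.7, 33.2 and 49.5 with EV). Their log2 fold changes were 1.14, 0.67 and 1.08 (adjusted p = 0.0278, 0.039 and 0.0474), and the groups did not overlap. Neuronal markers summed to 9077 to 10412 with *anc-1* RNAi and 7993 to 10438 with EV, with 0 of 12 called by limma without the block (2 at an unadjusted p below 0.05, 0 by edgeR and 0 by DESeq2) and 1 higher and 1 lower with it, and their part in the neuropeptide result was not tested. Single omissions ended the call of *ins-7* (without *anc-1* RNAi replicates 1, 2, 3 and 4 and EV replicate 2, up to 0.087), *ins-34* (without *anc-1* RNAi replicate 3 and EV replicate 2, up to 0.0546), *ins-30* (without *anc-1* RNAi replicates 1, 2, 3 and 4 and EV replicates 2 and 3, up to 0.134) and *nlp-16* (without *anc-1* RNAi replicates 1, 2, 3 and 4 and EV replicates 1 and 2, up to 0.0983). Calls also ended in such fits for *nlp-18* (without *anc-1* RNAi replicates 1, 2, 3 and 4 and EV replicates 2 and 3, up to 0.15) and *flp-13* (without any sample but EV replicate 4, up to 0.164).

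Metabolic genes were called singly. The alcohol dehydrogenase *sodh-1* gave 145, 224, 139.5 and 212 in the *anc-1* RNAi samples, against 395, 527, 636 and 538 in the EV samples (log2 fold change -1.55, SE 0.20, adjusted p = 0.00178), the 1 gene called of 13. *acs-2*, an acyl-CoA synthetase of mitochondrial fat oxidation, gave 37.6, 38.5, 18.4 and 23.8 with *anc-1* RNAi, against 49.8, 60.2, 102 and 76.3 with EV (-1.27, adjusted p = 0.0426), and the carnitine palmitoyltransferase *cpt-6* had 142 to 213 with *anc-1* RNAi and 225 to 474 with EV (-1.01, adjusted p = 0.0269). All 3 were lower in each *anc-1* RNAi sample than in any EV sample. Of 52 cytochrome P450 genes *cyp-14A5* was called higher (74.3, 86.3, 86.9 and 46.6 with *anc-1* RNAi, against 30.1, 32.6, 27.7 and 12.6 with EV, 1.52, adjusted p = 0.0247), with 4 higher under the block. Neither a UDP-glucuronosyltransferase (of 52) nor a glutathione transferase (of 32) was called by limma without the block (UDP-glucuronosyltransferases, 4 at an unadjusted p below 0.05, 0 by edgeR and 1 by DESeq2, and glutathione transferases, 6 at an unadjusted p below 0.05, 0 by edgeR and 1 by DESeq2), and 2 and 1 were higher with it. Of 6 yolk genes limma called 0 without the block (4 at an unadjusted p below 0.05, 0 by edgeR and 0 by DESeq2) and 1 higher with it, *vit-5* (0.57, adjusted p = 0.209 without and 0.0497 with the block). Their groups overlapped, for instance in *vit-2* (11135 to 19483 with *anc-1* RNAi and 9796 to 13014 with EV, 0.36, adjusted p = 0.319) and *vit-6* (7056 to 13974 with *anc-1* RNAi and 6204 to 7859 with EV, 0.49, adjusted p = 0.206). *sodh-1* was called in all 8 omissions. Omitting 1 sample could end the call of *acs-2* (without *anc-1* RNAi replicates 1, 2, 3 and 4 and EV replicates 2 and 3, up to 0.134), *cpt-6* (without *anc-1* RNAi replicates 1, 3 and 4 and EV replicates 1, 2 and 3, up to 0.088) and *cyp-14A5* (without *anc-1* RNAi replicates 1, 2 and 3, up to 0.0918).

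Genes of cytosolic ribosomal proteins shifted together by a small amount, and their calls turned on the pairing and on EV replicate 4. All 79 had a positive log2 fold change, from 0.07 to 0.79 with a median of 0.56 (0.78 without EV replicate 4). Without the block 1 was called higher, *rps-16* of the small subunit, and with it 62 were. *rps-16* gave 14718, 16748, 12051 and 13933 in the *anc-1* RNAi samples, against 9771, 8739, 7229.9 and 7532 in the EV samples (log2 fold change 0.79, SE 0.15, adjusted p = 0.0147), without overlap. *rpl-10* of the large subunit gave 7686, 6755, 7223 and 7969.6 with *anc-1* RNAi, against 4772, 4368, 3638 and 6425 with EV and fell just short (0.65, adjusted p = 0.0522). Summed over the family, the values were 470581, 431212, 478903 and 595212 in the *anc-1* RNAi samples, against 288786, 343518, 246948 and 505745 in the EV samples. EV replicate 4 thus lay above 3 of the *anc-1* RNAi samples, while *anc-1* RNAi was higher within each repeat, by a median log2 difference of 0.73, 0.29, 0.99 and 0.22 in repeats 1, 2, 3 and 4. Replicate 4 was also the highest of its group in summed germline markers (32078 with *anc-1* RNAi and 34674 with EV), and the part of germline content in the ribosomal protein result was not tested. The count called higher was 0 when *anc-1* RNAi replicates 1 and 2 were each omitted and 70 when EV replicate 4 was omitted. The call depended on single samples for *rps-16* (without *anc-1* RNAi replicates 1 and 2, up to 0.0617).

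Other parts of the protein-making machinery had few calls. Of 59 translation factors and tRNA synthetases 0 were called by limma without the block (4 at an unadjusted p below 0.05, 0 by edgeR and 0 by DESeq2) and 1 was higher with it, the elongation factor *eef-2* (0.35, adjusted p = 0.242 without the block). None of 65 mitochondrial ribosomal protein genes was called under either fit (median 0.14), with 2 at an unadjusted p below 0.05, 0 by edgeR and 0 by DESeq2. Leaving out EV replicate 4 gave 5 translation factors and tRNA synthetases called higher.

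**Figure D4:**
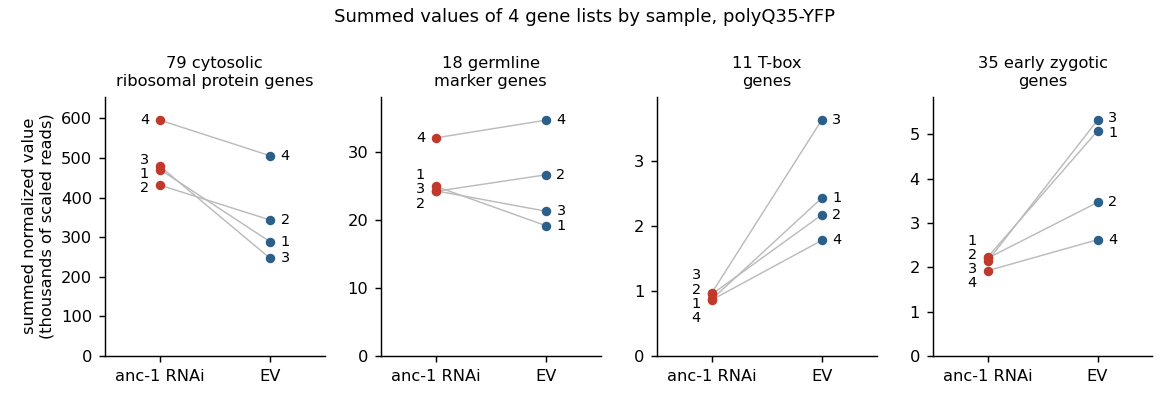
Summed normalized values of 4 gene lists by sample, *anc-1* RNAi left and EV right, numbered by replicate with lines joining the samples of a repeat. The sums of ribosomal protein and germline genes overlap between treatments and are highest in replicate 4, while those of T-box and early zygotic genes are lower in every *anc-1* RNAi sample.

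Chaperones, which keep other proteins folded, did not pass the test. Of 70, 0 were called higher and 0 lower, and with the block 0 and 2, at a median of 0.04. At an unadjusted p below 0.05 limma gave 1 higher and 2 lower, edgeR called 0 and 0, and DESeq2 0 and 0. Without EV replicate 4, limma called 2 higher and 2 lower. The heat-shock response gene *hsp-16.2* gave 31, 26.8, 23.7 and 12.4 in the *anc-1* RNAi samples, against 37.1, 37, 38.7 and 6.71 in the EV samples (log2 fold change -0.15, SE 0.49, adjusted p = 0.924), with the EV range set by a low value in replicate 4. *hsp-70*, also heat-inducible, was low (23.8 to 54 with *anc-1* RNAi and 13.4 to 34.3 with EV, 0.45, adjusted p = 0.598). *hsp-4*, a target of the unfolded protein response of the endoplasmic reticulum (ER), gave 4106, 3782, 3903 and 3807 with *anc-1* RNAi, against 3623, 4165, 3678 and 4661 with EV (-0.04, adjusted p = 0.914). *hsp-6*, its mitochondrial counterpart, gave 2867, 2628, 2739.5 and 3037 with *anc-1* RNAi, against 2038, 2792, 2192 and 3469 with EV (0.13, adjusted p = 0.762). Groups overlapped in all 4, as they did in the constitutive *hsp-1* (0.29, adjusted p = 0.494) and the HSP90 gene *daf-21* (0.08, adjusted p = 0.828).

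In the ER list 1 of 66 genes was called lower and 0 higher (7 and 1 with the block). It was *uggt-1*, the enzyme that marks misfolded glycoproteins for another round of folding, with 73.3, 133, 82.9 and 97.1 in the *anc-1* RNAi samples, against 184, 181, 215 and 186 in the EV samples (log2 fold change -1.01, SE 0.20, adjusted p = 0.0177). None of 17 genes of the mitochondrial response was called by limma without the block (1 at an unadjusted p below 0.05, 0 by edgeR and 0 by DESeq2), and 1 was higher with it, *timm-23* (0.40, adjusted p = 0.189 without the block). Without EV replicate 4 limma called 7 ER genes lower and 3 of the mitochondrial response higher. Adjusted p rose past 0.05 in single omissions for *uggt-1* (without *anc-1* RNAi replicates 1 and 3 and EV replicates 2 and 3, up to 0.0751).

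**Figure D5:**
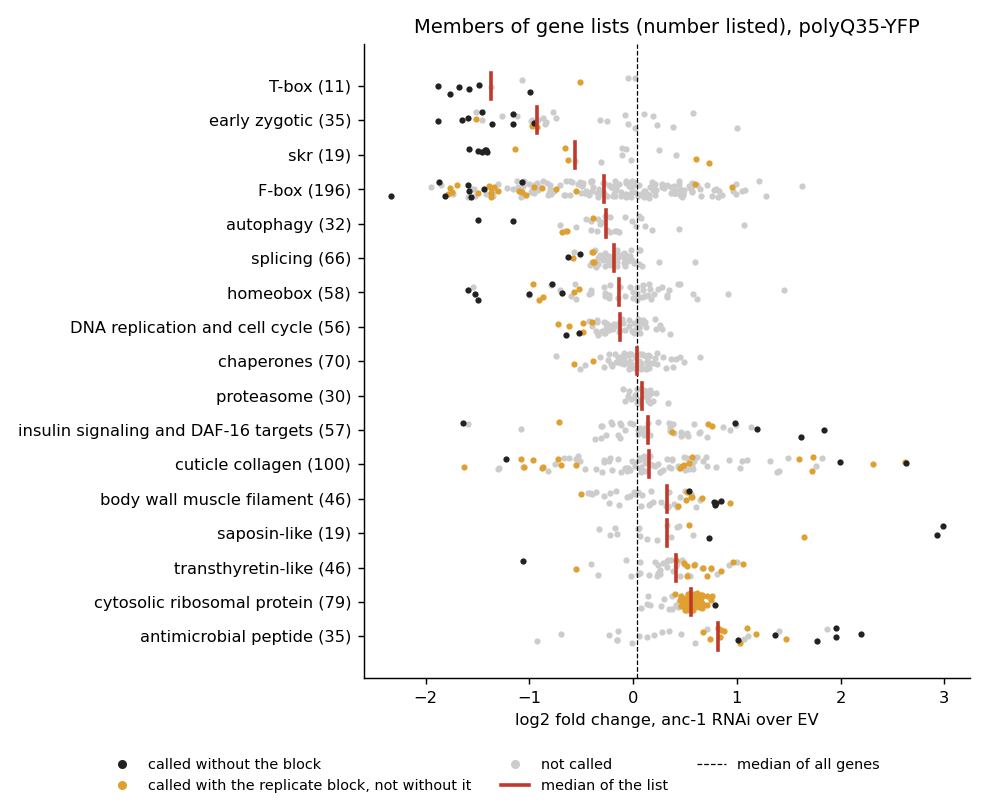
Log2 fold change (*anc-1* RNAi over EV) of the members of 17 gene lists, a point per gene, with red bars for list medians and a dashed line for the median of all genes (0.03). Medians run from -1.37 for T-box genes to 0.82 for antimicrobial peptides, and ribosomal protein genes form a narrow cluster around 0.56, most of them called with the block but not without it over all 8 samples.

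Genes known only by a clone name made up 50% of the genes called higher and 45.2% of those called lower, against 47.7% of all genes tested, and the largest changes named here had no function given in the tables unless one is stated. *C42D4.3* (chrIV:7179239-7180414) rose most, with 87.4, 129.4, 109 and 37.1 in the *anc-1* RNAi samples, against 11.6, 19.4, 5.53 and 2.51 in the EV samples (log2 fold change 3.25, SE 0.51, adjusted p = 0.00629). *K08D9.9* gave 1010.4, 1439.5, 908 and 822 with *anc-1* RNAi, against 281, 149, 237 and 84.7 with EV (log2 fold change 2.58, SE 0.30, adjusted p = 0.00139), and *Y47D7A.13* gave 47, 68.8, 59.2 and 27.6 with *anc-1* RNAi, against 11.6, 4.39, 9.96 and 7.54 with EV (log2 fold change 2.46, SE 0.36, adjusted p = 0.00426). The largest changes were picked from called genes whose groups did not overlap, so that the lack of overlap was set by the choice. In all 3 genes *anc-1* RNAi replicate 4 was the lowest of its group. Others among the largest rises were the cuticle gene *ram-2* (2.59), *ZK180.5* (2.38), *T03G6.1* (2.32) and *Y105C5A.13* (2.16), and, at few reads, *F13B12.4* (2.76), *R12E2.14* (2.41), *K06H7.1* (2.37) and *T04B2.3* (2.11). After *anc-1*, *F54F7.2* (chrX:11843661-11845339) fell furthest, with 25.4, 14, 23.7 and 19 with *anc-1* RNAi, against 175, 118, 142 and 144 with EV (log2 fold change -2.78, SE 0.24, adjusted p = 6.28e-05). *C02B8.3* gave 16.9, 5.83, 11.8 and 7.62 with *anc-1* RNAi, against 99.7, 74.6, 44.3 and 60.3 with EV (log2 fold change -2.65, SE 0.35, adjusted p = 0.00223), and *C44B7.5*, annotated as extracellular, gave 192, 183, 192 and 143 with *anc-1* RNAi, against 920.4, 631, 718 and 536 with EV (log2 fold change -1.96, SE 0.18, adjusted p = 0.000107). In *F54F7.2*, *C02B8.3* and *C44B7.5*, unlike the T-box genes, the highest EV sample was replicate 1. The others among the largest falls were *Y116F11A.1* (-1.92), *Y38E10A.3* (-1.88) and, at low values, *T02G6.11* (-2.15), *F14H12.7* (-1.97), *T27E9.6* (-1.94), *Y116A8C.19* (-1.87) and *Y48E1B.8* (-1.85). Single omissions kept the calls of *C42D4.3*, *K08D9.9*, *Y47D7A.13*, *F54F7.2*, *C02B8.3* and *C44B7.5*. With 1 of the 8 samples left out, the call ended for *ram-2* (without *anc-1* RNAi replicate 1, up to 0.051), *ZK180.5* (without *anc-1* RNAi replicates 1, 2 and 3, up to 0.072), *T03G6.1* (without *anc-1* RNAi replicates 1 and 2, up to 0.0558) and *Y105C5A.13* (without *anc-1* RNAi replicate 1, up to 0.0518). Fits lacking 1 sample lost *F13B12.4* (without *anc-1* RNAi replicates 1, 2 and 3 and EV replicate 3, up to 0.082), *R12E2.14* (without *anc-1* RNAi replicates 1, 2 and 3 and EV replicates 1, 2 and 3, up to 0.185), *K06H7.1* (without *anc-1* RNAi replicates 1, 2, 3 and 4 and EV replicates 1 and 2, up to 0.137) and *T04B2.3* (without any sample but EV replicate 4, up to 0.146). Single omissions ended the call of *Y116F11A.1* (without *anc-1* RNAi replicates 2 and 3 and EV replicate 3, up to 0.0633), *Y38E10A.3* (without *anc-1* RNAi replicates 1, 2 and 3, up to 0.0556), *T02G6.11* (without *anc-1* RNAi replicates 1, 2 and 3 and EV replicates 1, 2 and 3, up to 0.104) and *F14H12.7* (without *anc-1* RNAi replicates 2, 3 and 4 and EV replicates 2 and 3, up to 0.135). Calls also ended in such fits for *T27E9.6* (without any sample but EV replicate 4, up to 0.167), *Y116A8C.19* (without *anc-1* RNAi replicates 1, 2 and 3 and EV replicates 1, 2 and 3, up to 0.0875) and *Y48E1B.8* (without *anc-1* RNAi replicates 1 and 3 and EV replicates 1 and 2, up to 0.08).

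A term for the repeat added calls in genes whose values also differed between repeats. *ZK355.8* gave 739.7, 600.3, 355 and 209 in the *anc-1* RNAi samples, against 341, 134, 78.6 and 82.1 in the EV samples. Its groups overlapped, yet *anc-1* RNAi was higher in each repeat, and adjusted p was 0.0654 without the block and 8.56e-05 with it (4.13e-05 to 0.208 over all alternatives). The same held for *F53H4.2* (0.89, 0.12 without and 0.000333 with the block, 0.000333 to 0.308 over the alternatives), the C-type lectin *clec-146* (0.82, 0.0794 and 0.00045, 0.00045 to 0.232) and the SWEET family sugar transporter *swt-6* (0.93, 0.0676 and 0.000627, 0.000627 to 0.212). The linker histone gene *his-24* gave 6364, 6867, 8029 and 5699 with *anc-1* RNAi, against 11938, 11025, 20930.4 and 8221 with EV, lower in every *anc-1* RNAi sample (-0.88, 0.0649 and 0.0011, 0.000455 to 0.203). The remaining genes of lowest p among those called with the block and not without it over all 8 samples were *C27B7.9* (0.73), *clec-190* (0.68), *K09F6.13* (1.27), *T19B10.2* (1.221) and *R11A5.3* (-1.216). Of these 10 genes DESeq2 called 7 without a block, all but *ZK355.8*, *C27B7.9* and *clec-190*, edgeR called 0, and limma without the block called all but *clec-190* in at least 1 single omission.

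Set against wild-type worms, the response of 1 gene differed by the interaction of strain and treatment over the 11751 genes listed in both tables. *sodh-1* had a log2 fold change of -1.55 in polyQ35-YFP worms and -3.15 in wild-type worms, a difference of 1.603 (SE 0.25, limma adjusted p = 0.0462). It was lower with *anc-1* RNAi in all 4 polyQ35-YFP repeats. The next genes in order of p had fold changes of opposite sign in the strains but did not pass the test. The nuclear receptor *nhr-25*, an NR5A factor of the epidermis and moulting, was at -0.73 in polyQ35-YFP and 1.32 in wild-type worms (adjusted p = 0.107). *T05D4.3* was at -0.54 and 1.46 (adjusted p = 0.355), *dyf-1*, a gene of cilium transport, at -0.59 and 1.30 (adjusted p = 0.726), and the warthog gene *wrt-10* at -0.53 and 0.83 (adjusted p = 0.726). The count of 1 fell to 0 in fits that lacked *anc-1* RNAi replicate 2 or 4 or EV replicate 1 or 2 of polyQ35-YFP, or any 1 of the 6 wild-type samples. It rose to 6 when EV replicate 4 was left out and to 6 with the block. Strain and any batch between the 2 tables cannot be told apart.

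By chromosome, called genes were spread over all 6 nuclear chromosomes. Chromosome II held 26.3% of the genes called lower against 17.6% of those tested, and chromosome X 18.99% against 13.9%. Chromosome V, which carries *lys-7*, *spp-12*, *nlp-34* and *rps-16*, held 25 of the 94 genes called higher and 2313 of the 12173 tested. Of the T-box genes called, all 6 lie on chromosome III. These shares are descriptions without a test.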

How the data were processed

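Total RNA of whole worms was sequenced by CEL-Seq2. Per the labels and the study's methods, the authors trimmed reads with cutadapt 1.12, aligned them with TopHat2 2.1.1 to WBcel235, counted protein-coding genes with HTSeq 0.6.1 without molecular identifiers, divided by DESeq2 1.22.2 size factors and discarded genes with a mean count under 2. The deposited signal values of each strain are therefore normalized reads, and 100% of values came out as whole reads within 0.01 after division by the step of their sample. The deposited tables also hold the authors' own fold changes, errors, scores and p-values, which were not used. The strand setting of the counting is not given in the sources used here. Of the 192 genes followed singly, 41 overlap a gene on the opposite strand, among them *tbx-38*, *lsy-27*, *ceh-40*, *ceh-10*, *epg-2*, *inx-3*, *perm-2*, *mcm-7*, *col-107*, *ins-34*, *sodh-1*, *rps-16* and *clec-145*, and reads of near-identical copies may be split or lost. PCR duplicates were counted, so depth overstates the number of molecules.

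For the present report, log2(normalized value + 1) was tested with limma 3.58.1 (R 4.3.3) using empirical Bayes with a variance trend, over the 8 polyQ35-YFP samples and without a block, after the authors' comparison of each strain alone. The strain difference was the interaction term over all 14 samples. Samples of one replicate number came from one repeat per the study's design text. Over 9566 genes their deviations from the group means correlated at 0.215, 0.0949, 0.122 and 0.57 for repeats 1 to 4, against -0.469 to 0.271 for samples of unlike number. *anc-1* RNAi replicate 2 correlated more with EV replicates 1 (0.271) and 3 (0.146) than with its own number, so that the pairing rests on the design text. Alternatives were the replicate block, a pseudocount of 4, a mean value of at least 10, TMM or library-total scaling, no variance trend, edgeR 4.0.16 and DESeq2 1.42.0 on recovered reads, and omission of each sample or of replicate 4 in both groups. The blocked edgeR fit and the list counts over single omissions were added after seeing the data. The code was tested on simulated data. Gene lists and genes were chosen with earlier results of these data known. Single genes were taken from a rule, namely *anc-1* and key list genes, the 15 largest non-overlapping changes called in each direction, up to 4 called members per list (or the 2 of lowest p), the 10 of lowest p called with the block and not without it, and the 5 of lowest p in the strain difference. Members that complete a list's count, and other members given beside them, were named after their values were seen. Coordinates are those of the deposited tables. Promoter motifs were not analysed here.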

Additional observations from a re-analysis of the deposited data

Results flagged for a closer look

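In 15 of 228 groups of 4 samples, taken over 114 genes, the gap between 1 sample and the nearest of the others exceeded the 95% critical value of Dixon's ratio of gap to range. Chance alone gives about 1 in 20 groups. EV replicate 3 lay above the rest of its group in 5 genes. *K06H7.1* had 2.21 in EV replicate 3, where 1 read was worth 1.11, against 0 in the others of its group. With the others tied at 0 the ratio is at its maximum, so that the rate of 1 in 20 does not hold for this gene. *nlp-16* had 84.1 in EV replicate 3, against 39.4 to 46.4 in the others of its group. *pes-10* had 95.2 in EV replicate 3, against 45.3 to 46.4 in the others of its group. *rsp-3* had 10288 in EV replicate 3, against 8356 to 8598 in the others of its group. *uggt-1* had 215 in EV replicate 3, against 181 to 186 in the others of its group.

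EV replicate 4 stood apart in 3 genes. *grd-10* had 25.1 in EV replicate 4, against 42.9 to 45.4 in the others of its group. *hsp-16.2* had 6.71 in EV replicate 4, against 37 to 38.7 in the others of its group. *inx-8* had 724 in EV replicate 4, against 551 to 571 in the others of its group. For the heat-shock gene *hsp-16.2* the groups would not overlap without this sample. Its *anc-1* RNAi replicate 4 was also the lowest of its group, and lay above EV replicate 4.

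Single *anc-1* RNAi samples stood apart in the remaining genes. *F13B12.4* had 4.76 in *anc-1* RNAi replicate 4, against 12.8 to 13.2 in the others of its group. *Y116A8C.19* had 2.63 in *anc-1* RNAi replicate 3, where 1 read was worth 1.32, against 4.66 to 4.76 in the others of its group. *btb-11* had 18.4 in *anc-1* RNAi replicate 3, against 6.99 to 8.57 in the others of its group. *ceh-10* had 15.2 in *anc-1* RNAi replicate 2, against 16.9 to 17.1 in the others of its group. *inx-8* had 207 in *anc-1* RNAi replicate 2, against 262 to 272 in the others of its group. *nhr-2* had 417 in *anc-1* RNAi replicate 4, against 315 to 328 in the others of its group. *sdz-28* had 137 in *anc-1* RNAi replicate 3, against 109.6 to 110.4 in the others of its group.

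The response of the alcohol dehydrogenase *sodh-1* differed between strains, its log2 fold change in polyQ35-YFP minus that in wild type being 1.603 by limma (adjusted p = 0.0462).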

How the results depend on the processing

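The fold change of *anc-1* kept its direction and passed the threshold under every alternative run for it. With the replicate block 466 genes were called higher and 524 lower, 56 of the 63 lists had a called member against 36 without it, and 6 genes differed between strains. The block with edgeR gave 438 and 510 genes, and with replicate 4 of both groups omitted 365 and 496, or 325 and 463 without a block. On the recovered reads edgeR called 80 higher and 169 lower. DESeq2 called 203 higher and 398 lower, scaling by library totals 32 and 94, and no variance trend 1 and 6. With a mean value of at least 10 the strain difference had 0 genes. Over the single omissions, from 19 to 305 genes were called higher, from 41 to 535 lower, and from 0 to 6 differed between strains. None of the calls of 96 named genes besides *anc-1* turned in direction, but 464 of their 1815 values under alternatives lost significance, by up to 93 of 97 genes without a variance trend and 0 with the block.

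Among 66 genes not called, 18 of 1253 values changed sign. For *hsp-16.2* these were 0.04, 0.04 and 0.06 in the fits that lacked EV replicate 1, 2 or 3 and 0.12 in the one that lacked *anc-1* RNAi replicate 4, within -0.73 to 0.12 over all single omissions. *hsp-4* gave 0.031 when EV replicate 4 was left out and 0.042 when replicate 4 of both groups was, with or without the block (single omissions -0.090 to 0.031). *inx-14* gave -0.013 with library totals, -0.15 and -0.03 in fits lacking EV replicate 1 or 3, and -0.11 when *anc-1* RNAi replicate 4 was left out (single omissions -0.15 to 0.22). *myo-3* gave -0.037 with library totals, -0.068 when EV replicate 2 was left out, and -0.02, -0.05 and -0.04 in fits lacking *anc-1* RNAi replicate 1, 2 or 3 (single omissions -0.068 to 0.15). *sun-1* gave -0.0075 when EV replicate 3 was left out and -0.011 when *anc-1* RNAi replicate 4 was (single omissions -0.011 to 0.25). The cause of these moves was not tested. At this number of samples the smallest log2 fold changes called without the block were 0.54 and -0.51.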

Other observations

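The 12 listed genes of the mitochondrial genome, which encode respiratory chain and ATP synthase subunits, were looked at after the values were seen. Their normalized values summed to 204075, 224252, 165019.7 and 192385 in the *anc-1* RNAi samples, against 187891, 108665, 146974 and 100033 in the EV samples. EV replicate 1 thus lay within the range of the *anc-1* RNAi samples and the other EV samples below it. All 12 had a positive log2 fold change, from 0.46 to 0.81 with a median of 0.59. By limma none of them was called without the block, 11 had an unadjusted p below 0.05, edgeR called 0 and DESeq2 4, and 8 were called higher with the block. The cytochrome b gene *ctb-1* gave 14766, 14635, 10859 and 14364 with *anc-1* RNAi, against 11353, 7501, 10641 and 7090.2 with EV, and the complex I gene *nduo-4* gave 15139, 15912, 12331 and 14724 with *anc-1* RNAi, against 12044, 7929, 10407 and 7736 with EV. Only *nduo-4* had groups without overlap. In wild-type worms the median was 0.19 and limma called none of the 12 (adjusted p from 0.117 to 0.896).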
